A study of Mus musculus with 6 samples.

Results

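The genes that copy DNA were examined in samples labelled as embryonic mouse hearts, with and without Sp3. Marker genes measured on the same arrays go against the heart label, so the tissue is given here only as labelled. They were taken from a list of 48 genes for replication origins, replicative polymerases, nucleotide synthesis and cyclin E, each read by its annotated probe set of highest mean log2 intensity. All 48 were measured, among 18193 genes on the array, and all 48 lay above the median level of the 45037 probe sets tested. The study set 3 arrays of Sp3 knockout fetuses against 3 arrays of wildtype fetuses, both at stage E12.5, with total RNA of 1 sample, labelled as a heart, on each array. Each group carries the letters a, b and c. Strain, sex, the deleted part of Sp3 and any scan or extraction batch are not given in the sources used here. Nothing in the sample labels says that the samples are separate litters, so the p-values measure only the spread between these samples.

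DNA replication begins when the origin recognition complex marks sites on the chromosome and Cdc6 and Cdt1 load the ring-shaped MCM helicase there. Cyclin E with its kinase, and then Cdc45 and the GINS complex, turn the helicase on, after which polymerases alpha, delta and epsilon copy both strands behind it. Many of these genes are transcribed together at the start of S phase by the E2F family, and Sp3 is a zinc finger factor that binds GC boxes, which are common in such promoters.

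The Sp3 probe set of highest mean stood at 8.39, 8.34 and 8.61 on the log2 scale in the knockout arrays. Values are always given in letter order. In wildtype this Sp3 probe set stood at 9.87, 9.77 and 9.54. It was lower in knockout by a log2 difference of -1.27 (SE 0.12; limma adjusted p = 0.00254). The adjusted p was 0.0665 without knockout a and 0.279 without the intensity trend in the variance, so the call ended in both of these fits. Median intensity per array ran from 22.5 to 26.7. The marker check went against the labelled tissue, since most liver and red cell transcripts were near the top of the array and heart muscle transcripts mostly low or middling. Of 12 heart muscle markers 6 lay below the median of all probe sets. They ran from Myh6 at the 11.4th percentile of genes to Actc1 at the 79.5th. Alb, the liver's serum albumin, lay at the 99.9th and the embryonic globin gene Hbb-bh1 at the 99.9th. The lowest liver marker was Hnf4a at the 84.3th, and the lowest red cell marker was the globin gene Hba-a1 at the 20.1th. Which cells the replication transcripts come from was not tested, and a smaller number of dividing cells and less RNA per cell cannot be told apart in bulk tissue.

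Promoter sequence was available for 39 of the 48 genes. The windows ran from 250 bases before to 50 bases after the start sites used, in RefSeq, build GRCm38.p6. These sites need not be a gene's outermost annotated end, and distances are counted from them. The Cdc6 locus, for example, begins at 98907709, before its window from 98907901. The E2F consensus was searched as TTTGGCGC, TTTGCCGC, TTTCGCGC and TTTCCCGC on both strands, and 15 of the 39 genes held it, 38.5%, against 2.6% of all 27025 genes in the table (counting a gene once if any of its windows matched). The GC box, GGGCGG on either strand, was in 30 of the 39, 76.9%, against 38.2% of all genes. CCAAT on either strand, the letters read by NF-Y, was in 23, 59.0%, against 41.1%. A match describes letters only and is not evidence of binding.

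E2F letters were most frequent among the loading and helicase genes, in 4 of 5 MCM genes and in both licensing genes with a window. The windows of Mcm3, Mcm5 and Mcm6, subunits of the ring-shaped helicase, and of Cdc6, which helps to load it, are shown because they carry these letters, which are in capitals. They lie at chr1:20820263-20820562 on the minus strand, chr8:75109259-75109558 on the plus strand, chr1:128359656-128359955 on the minus strand and chr11:98907901-98908200 on the plus strand.
Mcm3: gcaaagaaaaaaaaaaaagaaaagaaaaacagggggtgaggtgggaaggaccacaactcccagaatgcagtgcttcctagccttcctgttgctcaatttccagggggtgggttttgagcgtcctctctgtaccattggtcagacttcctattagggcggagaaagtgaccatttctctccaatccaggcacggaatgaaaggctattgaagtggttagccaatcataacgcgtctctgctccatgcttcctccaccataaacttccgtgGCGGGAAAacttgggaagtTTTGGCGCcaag
Mcm5: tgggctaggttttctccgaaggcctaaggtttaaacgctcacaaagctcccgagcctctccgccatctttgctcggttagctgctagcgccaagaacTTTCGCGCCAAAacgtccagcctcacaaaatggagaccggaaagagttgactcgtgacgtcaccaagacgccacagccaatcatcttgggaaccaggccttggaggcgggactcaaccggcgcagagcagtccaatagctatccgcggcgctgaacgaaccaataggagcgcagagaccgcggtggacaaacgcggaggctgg
Mcm6: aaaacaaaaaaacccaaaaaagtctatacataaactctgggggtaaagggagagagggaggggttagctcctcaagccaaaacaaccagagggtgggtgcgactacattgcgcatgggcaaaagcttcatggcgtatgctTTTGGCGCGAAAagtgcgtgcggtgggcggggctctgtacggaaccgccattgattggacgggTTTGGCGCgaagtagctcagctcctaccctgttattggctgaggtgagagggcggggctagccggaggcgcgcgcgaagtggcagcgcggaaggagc
Cdc6: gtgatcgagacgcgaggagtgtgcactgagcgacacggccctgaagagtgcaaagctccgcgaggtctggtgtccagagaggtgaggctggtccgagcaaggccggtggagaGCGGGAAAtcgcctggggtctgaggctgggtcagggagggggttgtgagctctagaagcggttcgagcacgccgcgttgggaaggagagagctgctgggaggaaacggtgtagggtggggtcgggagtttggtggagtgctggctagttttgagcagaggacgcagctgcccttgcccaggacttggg
In Mcm6 the run of capitals nearer the 5′ end holds an overlapping pair of matches, 110 and 106 bases before the start, and in Mcm5 the pair overlaps as well. Both Mcm3 matches lie after the start, 20 and 39 bases in.

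Tk1 and Rrm2, the genes with the smallest p in the comparison of the groups, held no E2F letters in their windows, nor did the other 3 nucleotide synthesis genes. Their windows are shown with GC boxes and CCAAT letters in capitals, at chr11:117825965-117826264 on the minus strand for Tk1 and chr12:24708004-24708303 on the plus strand for Rrm2.
Tk1: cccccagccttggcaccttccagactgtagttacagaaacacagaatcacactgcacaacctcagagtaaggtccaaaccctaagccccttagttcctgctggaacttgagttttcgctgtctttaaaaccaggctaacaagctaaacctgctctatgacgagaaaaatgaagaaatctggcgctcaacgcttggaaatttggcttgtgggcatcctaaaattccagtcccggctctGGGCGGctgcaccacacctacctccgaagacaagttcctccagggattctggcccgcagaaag
Rrm2: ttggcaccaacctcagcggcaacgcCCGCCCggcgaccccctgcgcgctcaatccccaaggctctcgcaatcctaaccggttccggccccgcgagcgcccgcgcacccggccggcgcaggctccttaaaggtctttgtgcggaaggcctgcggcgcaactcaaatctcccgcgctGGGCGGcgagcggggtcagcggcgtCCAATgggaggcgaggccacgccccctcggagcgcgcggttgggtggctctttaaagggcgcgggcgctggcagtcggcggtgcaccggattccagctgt
Tk1 has 1 GC box, 13 bases before the start. Rrm2 has GC box letters 225 and 75 bases before the start and CCAAT letters 50 bases before it. Over the 39 genes, the median log2 difference between knockout and wildtype was -0.10 in the 15 with E2F letters and -0.18 in the 24 without. It was -0.16 in the 30 with a GC box and -0.11 in the 9 without, a description with no test.

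Replication genes were slightly lower in Sp3 knockout as a group of values, and no single gene passed the test. The knockout minus wildtype log2 difference was below 0 in 42 of the 48 and above 0 in 6, with a median of -0.14, which is 90.5% of the wildtype intensity. Over all probe sets the median was 0.02 and 47.8% were below 0, and with 1 probe set per gene 52.5% were. Limma, fitted over all probe sets with a variance prior that follows intensity, called 0 of the 48 at an adjusted p under 0.05, where it called 0.0311% of all probe sets. Limma without that trend also called 0. At an unadjusted p under 0.05 there were 15 lower and 0 higher, against 3.89% lower and 3.27% higher among all probe sets and 5.51% lower with 1 probe set per gene. Without the trend 1 gene, Tk1, was lower at that level, against 2.73% of all probe sets. The groups did not overlap in 15 genes, all lower in knockout, against 6.89% of all probe sets and 9.04% with 1 probe set per gene. Groups apart and higher in knockout, 6.15% of all probe sets, were found in 0 of the 48. The tests thus place 0 genes past the threshold, while the share of genes leaning lower is above the background share.

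**Figure D1:**
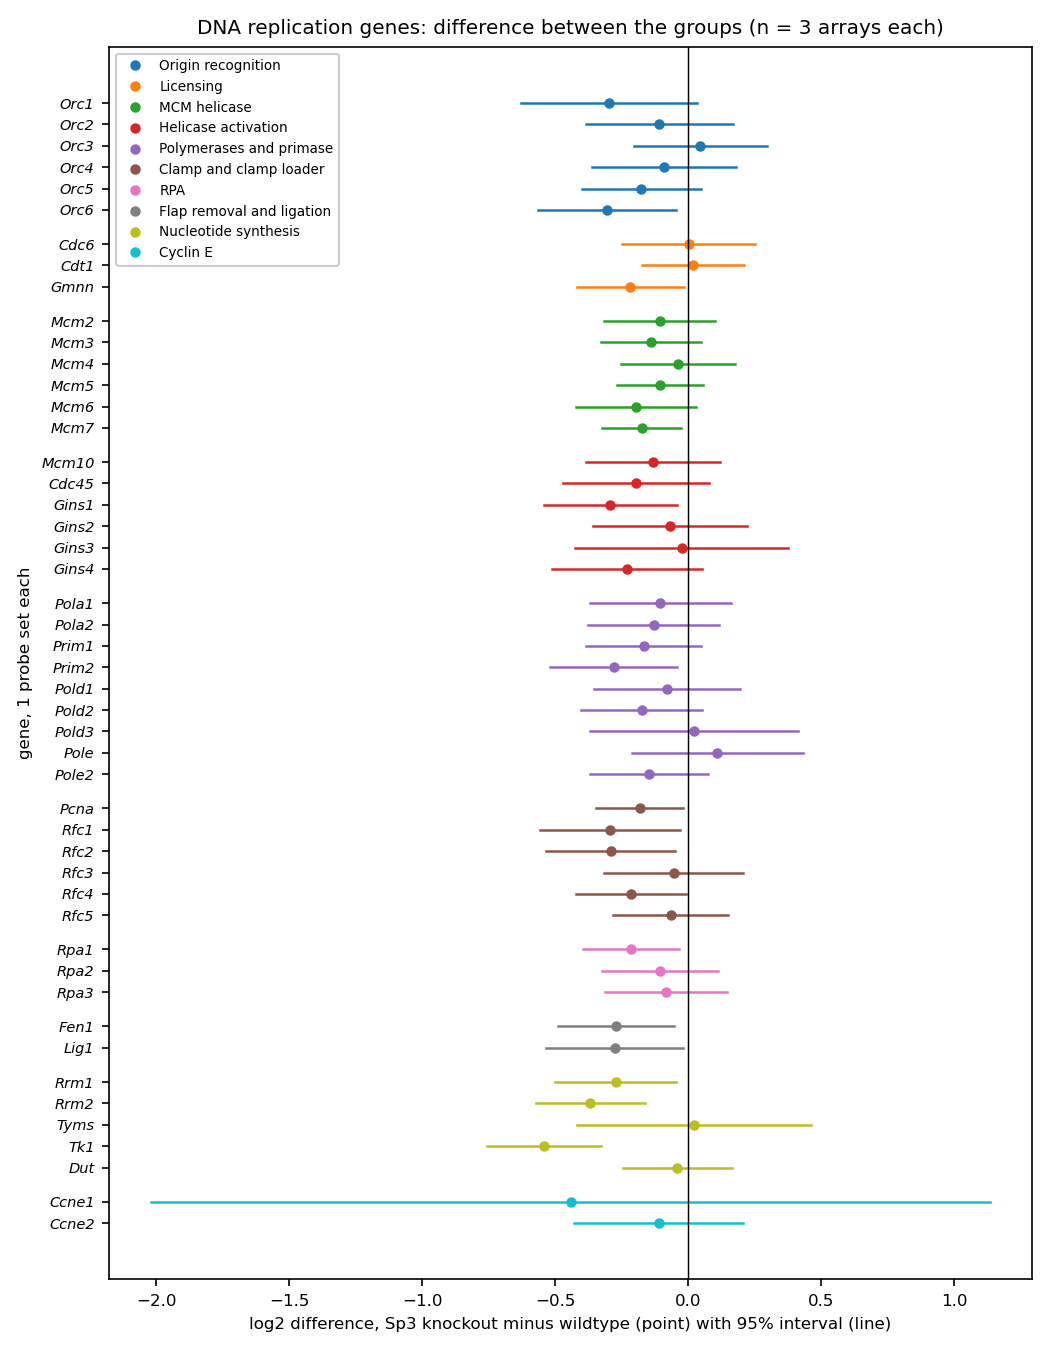
Log2 difference between Sp3 knockout and wildtype (x axis) for each of the 48 replication genes (y axis), coloured by role, with lines for the limma 95% interval and n = 3 arrays per group. Most points lie left of 0, Tk1 farthest at -0.54, and the interval of Ccne1 is the widest, from -2.02 to 1.14.

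Brighter probe sets leaned lower in knockout as a class, so the members were also read against probe sets at or above the lowest member level of 6.68. Of these 11972 probe sets, 58.9% lay below 0, with a median of -0.04, and 8.3% were lower at an unadjusted p under 0.05. Groups without overlap and lower in knockout made up 12.9% of them. After quantile normalization, which gives all arrays 1 distribution, the median of the 48 genes was -0.08, 38 lay below 0 and 4 were lower at an unadjusted p under 0.05. Over all probe sets 49.6% lay below 0 and 3.62% were lower at that level in the same fit. The same bright class then had a median of 0.00. Other bright probe sets thus leaned the same way on the deposited scale, by less, and the median of the 48 genes was below the median of that class on both scales.

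The arrays did not contribute equally. Of the 48 genes, 27 had their highest value in wildtype c and 25 their lowest in knockout c, with another 15 lowest in knockout a. Among all probe sets 21.7% were highest in wildtype c and 18.7% lowest in knockout c. The mean deviation of the 48 genes from their own averages was -0.12 in knockout a, 0.01 in knockout b and -0.13 in knockout c. The 3 wildtype arrays, in letter order, gave 0.06, 0.01 and 0.16. Knockout b and wildtype b were thus about level, and the groups differed least between these 2 arrays. The count of 15 genes at an unadjusted p under 0.05 was 5 without knockout a, 4 without knockout c, 7 without wildtype a and 5 without wildtype c. It was 18 without knockout b and 12 without wildtype b. Over all probe sets the share lower at that level ran from 2.55% to 5.14% in these fits, lowest without wildtype a and highest without knockout b. The median difference stayed between -0.20 and -0.12 in these 6 fits.

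**Figure D2:**
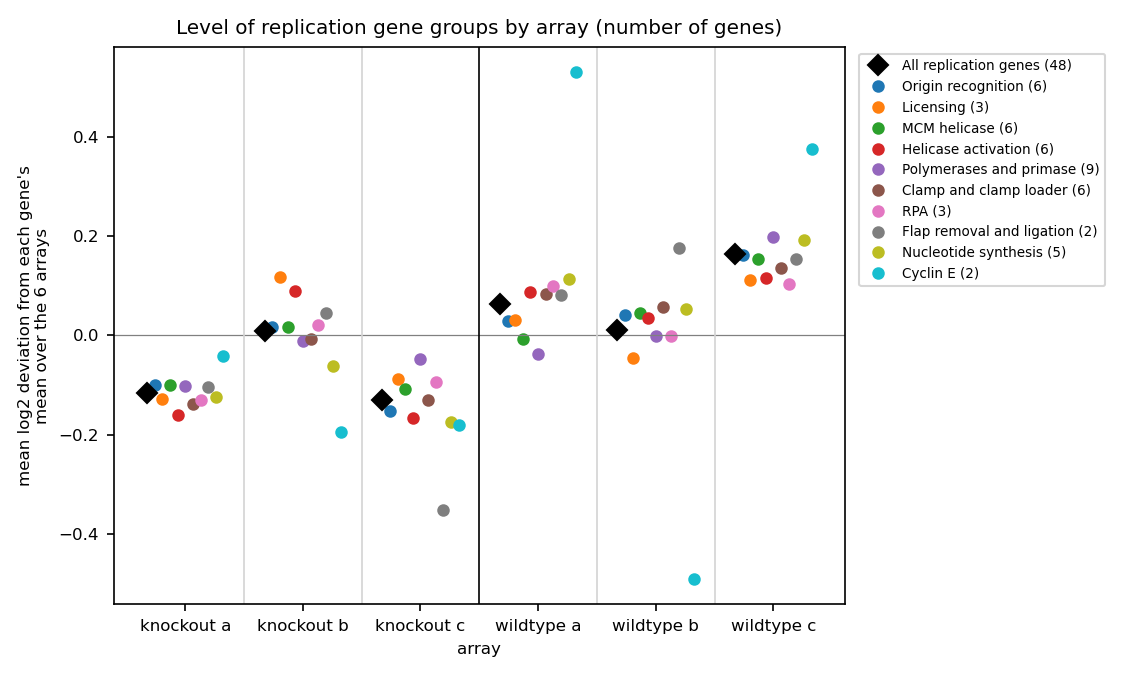
Mean log2 deviation of each group of replication genes from the genes' own averages (y axis) in each of the 6 arrays (x axis), with the number of genes in brackets and diamonds for all 48. The diamonds of knockout a and c lie lowest, at -0.12 and -0.13, that of wildtype c highest, at 0.16, and cyclin E ranges widest.

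Genes that mark and license origins showed small differences. Orc1, the largest subunit of the origin recognition complex and the one that varies over the cell cycle, stood at 7.66, 7.82 and 7.34 in knockout and at 7.84, 7.88 and 7.99 in wildtype. The knockout arrays all lay below the wildtype arrays, with knockout c lowest, and the log2 difference was -0.30 (SE 0.15; limma adjusted p = 0.721). Orc6, the smallest subunit, stood at 9.22, 9.29 and 9.34 in knockout and at 9.48, 9.46 and 9.83 in wildtype. It also did not overlap between the groups, at -0.31 (SE 0.12; adjusted p = 0.662), and in Orc5 the groups were apart as well at -0.18. The remaining subunits, Orc2, Orc3 and Orc4, overlapped, with differences between -0.11 and 0.05.

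The licensing factors were at nearly the same level in both groups, apart from their inhibitor. Cdc6, which joins the origin complex to load the helicase, stood at 9.88, 10.16 and 9.79 in knockout and at 9.84, 9.90 and 10.08 in wildtype. Its difference was 0.00 with a 95% interval from -0.25 to 0.25. Cdt1, the second loading factor, stood at 11.08, 11.30 and 11.31 in knockout and at 11.24, 11.10 and 11.30 in wildtype. Its difference was 0.02 with an interval from -0.17 to 0.21, and the 6 arrays are fully mixed for both genes. Gmnn, geminin, which binds Cdt1 to block a second round of licensing, stood at 10.49, 10.73 and 10.48 in knockout and at 10.85, 10.71 and 10.80 in wildtype. Knockout b lay between the wildtype arrays, and the difference was -0.22 (SE 0.09; limma adjusted p = 0.680).

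All 6 subunits of the MCM helicase had a difference below 0, from -0.20 in Mcm6 to -0.04 in Mcm4. Mcm2, the subunit that also binds histones, stood at 10.87, 10.85 and 10.64 in knockout and at 10.91, 10.75 and 11.02 in wildtype. These values overlap, and the difference was -0.11 (SE 0.10; limma adjusted p = 0.826). Mcm7 was the only subunit of the ring without overlap, at 12.05, 12.19 and 12.07 in knockout and at 12.26, 12.22 and 12.36 in wildtype. Its difference was -0.17 (SE 0.07; adjusted p = 0.661), and 2 of its other 3 probe sets were lower by similar amounts, at -0.26 and -0.21, while the remaining one was level at 0.00. The interval of Mcm5, from -0.27 to 0.06, bounds its change more tightly than those of the other subunits apart from Mcm7.

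The factors that switch the helicase on all had a difference below 0, and 1 of the 6 lay without overlap. With 1 probe set per gene, 9.04% of all genes were lower without overlap. Among probe sets at or above the lowest member level 12.9% were. Mcm10, which helps the unwound fork to start, stood at 8.67, 8.92 and 8.69 in knockout and at 8.90, 8.95 and 8.82 in wildtype, with a difference of -0.13 (SE 0.12; limma adjusted p = 0.821). Gins1, a subunit of the GINS complex, stood at 8.96, 9.04 and 8.89 in knockout and at 9.26, 9.10 and 9.41 in wildtype. Every knockout array was below every wildtype array, at -0.29 (SE 0.12; adjusted p = 0.663), and its dimmer probe set differed by -0.68. For Gins2 the probe set of highest mean differed by -0.07 and the other by -0.42. Cdc45, the helicase cofactor, differed by -0.20, Gins4 by -0.23 and Gins3 by -0.02, all with overlap.

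Among polymerase and primase subunits 7 of 9 had a difference below 0. Pola1, the catalytic subunit of the polymerase that starts each new strand, stood at 8.53, 8.79 and 8.87 in knockout and at 8.78, 8.85 and 8.88 in wildtype. Only knockout a lay apart from the rest, and the difference was -0.10 (SE 0.12; limma adjusted p = 0.864). Prim2, the large primase subunit, stood at 8.78, 8.92 and 8.73 in knockout and at 9.07, 9.04 and 9.15 in wildtype. It did not overlap, at -0.28 (SE 0.11; adjusted p = 0.663). Pold2 at -0.18 and Pole2 at -0.15, accessory subunits of polymerases delta and epsilon, did not overlap either.

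Pole, the catalytic subunit of the leading-strand polymerase, had the largest positive difference of the 48. It stood at 8.59, 8.57 and 8.44 in knockout and at 8.19, 8.35 and 8.74 in wildtype, so that wildtype c was above all knockout arrays and the other two wildtype arrays below them. The difference was 0.11 (SE 0.15; limma adjusted p = 0.883). Pold3, a further delta subunit, was at 8.34, 8.34 and 8.66 in knockout and at 8.14, 8.27 and 8.86 in wildtype, a difference of 0.02 (SE 0.18; adjusted p = 0.987). Wildtype c was the highest array for both. Prim1, the catalytic primase subunit, gave -0.17 at one probe set and 0.15 at the other, so its direction depends on the probe set read.

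The sliding clamp and its loader leaned lower together, with a difference below 0 in all 6 genes and an unadjusted p under 0.05 in 4. With 1 probe set per gene, 5.51% of all genes were lower at that level. Among probe sets at or above the lowest member level 8.3% were. Pcna, the clamp that holds polymerases on DNA, stood at 12.84, 13.03 and 12.71 in knockout and at 13.08, 13.04 and 13.00 in wildtype. Knockout b lay within the wildtype range, and the difference was -0.18 (SE 0.07; limma adjusted p = 0.665). Of the clamp loader, Rfc1, its large subunit, differed by -0.29 and Rfc2 by -0.29, both without overlap, and Rfc4 by -0.22. Rfc3 at -0.05 and Rfc5 at -0.07 differed less than their SE of 0.12 and 0.10. All 3 probe sets of Rfc1 and all 3 of Rfc2 were below 0.

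Single-strand binding and Okazaki fragment genes gave the same sign. Rpa1, the DNA-binding subunit of replication protein A, stood at 11.31, 11.43 and 11.25 in knockout and at 11.60, 11.42 and 11.62 in wildtype. Knockout b and wildtype b were level, and the difference was -0.22 (SE 0.08; limma adjusted p = 0.658). Rpa2 differed by -0.11 without overlap and Rpa3 by -0.08 with it. Fen1, the nuclease that trims the flap between fragments, stood at 11.30, 11.45 and 11.08 in knockout and at 11.47, 11.48 and 11.70 in wildtype. The groups were just apart, at -0.27 (SE 0.10; adjusted p = 0.651), and the other Fen1 probe set gave -0.29. Lig1, the ligase that joins the fragments, differed by -0.28 (SE 0.12), with knockout c lowest at 9.69.

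Nucleotide synthesis held the 2 genes of smallest p, Tk1 and Rrm2. Tk1, thymidine kinase, which salvages thymidine in S phase, stood at 9.13, 9.23 and 9.14 in knockout and at 9.66, 9.70 and 9.77 in wildtype. The gap between the groups was far larger than the spread within either, with group SDs of 0.05 and 0.06. The difference was -0.54 (SE 0.10), and knockout was at 68.7% of the wildtype intensity with a 95% interval from 59.2% to 79.7%. Its limma adjusted p was 0.149 with the trend and 0.688 without it. It has a single probe set. Its difference stayed between -0.62 and -0.47 under all 16 other ways of processing, and its adjusted p was above the threshold in each of these other than the fit with the array letter as a block.

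Rrm2, the small subunit of ribonucleotide reductase, which makes deoxynucleotides and is limiting in S phase, stood at 11.50, 11.75 and 11.38 in knockout and at 12.02, 11.87 and 11.85 in wildtype. The arrays did not overlap, and the difference was -0.37 (SE 0.10; limma adjusted p = 0.438). Its other probe sets gave -0.52 and -0.49. Rrm1, the large subunit of the same enzyme, stood at 11.12, 11.27 and 10.81 in knockout and at 11.34, 11.32 and 11.37 in wildtype. Knockout c was the lowest array, and the difference was -0.27 (SE 0.10; adjusted p = 0.658).

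The other two genes of this role were level between the groups at the probe set read. Tyms, thymidylate synthase, stood at 6.84, 6.38 and 6.84 in knockout and at 6.62, 6.46 and 6.92 in wildtype, a difference of 0.02 with an interval from -0.42 to 0.46. A dimmer Tyms probe set, at 5.14, 5.26 and 5.15 in knockout and at 5.73, 5.53 and 5.58 in wildtype, gave -0.43 without overlap, so the 2 probe sets disagree. Dut, which removes dUTP before it enters DNA, differed by -0.04 with an interval from -0.25 to 0.16.

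Cyclin E, which with its kinase starts S phase, gave no usable comparison at the Ccne1 probe set of highest mean. That probe set stood at 9.18, 8.41 and 8.96 in knockout and at 9.89, 8.10 and 9.90 in wildtype. Both b arrays were low and wildtype a and c high, a spread of 1.04 (SD) within wildtype, and the difference was -0.44 (SE 0.60; limma adjusted p = 0.890). By the array's naming, it may also bind other transcripts, as may the probe sets read for Mcm3, Mcm5, Mcm7, Gins2, Pold1, Fen1 and Rrm2. The second Ccne1 probe set was tighter, at 8.33, 8.55 and 8.11 in knockout and at 8.78, 8.55 and 8.68 in wildtype, a difference of -0.34. Ccne2, the second cyclin E, stood at 9.11, 9.58 and 9.06 in knockout and at 9.55, 9.30 and 9.23 in wildtype, with full overlap and a difference of -0.11.

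**Figure D3:**
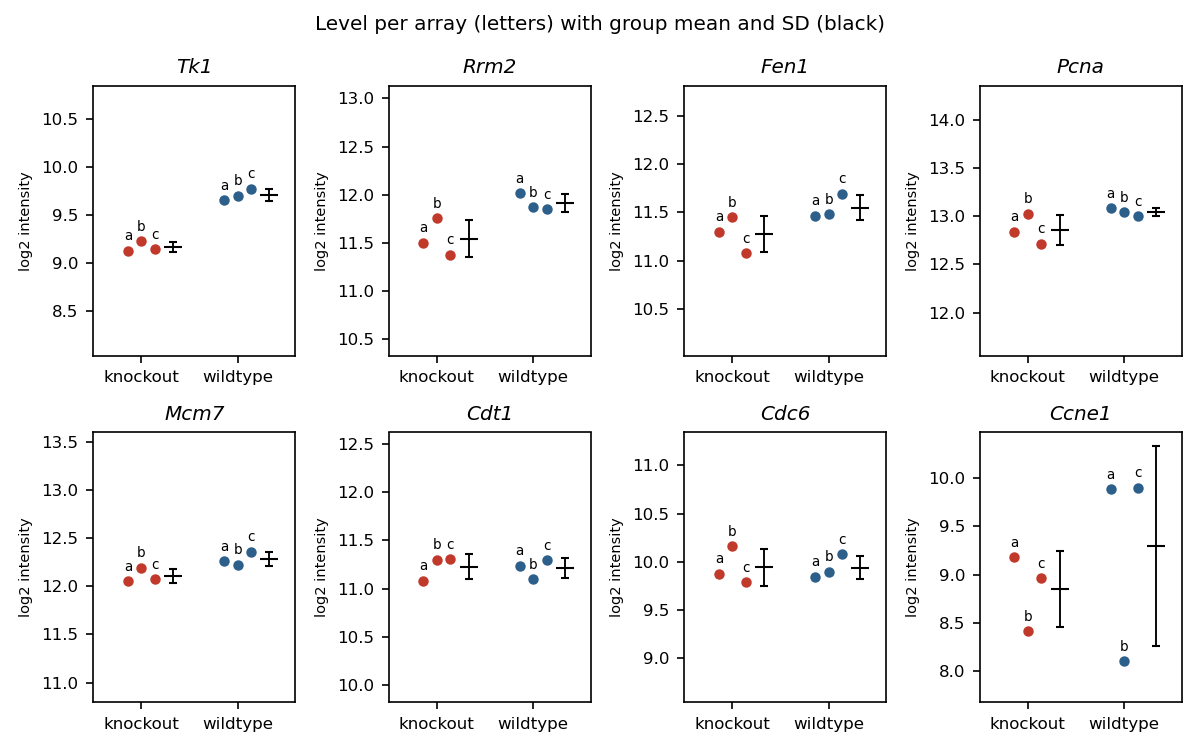
Log2 intensity (y axis, the same span in each panel) of 8 replication genes in each array, lettered, by group (x axis), with the group mean and SD in black. Tk1 and Rrm2 separate the groups, Cdt1 and Cdc6 mix them, and the Ccne1 probe set splits both groups by array.

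Most genes were read by more than 1 probe set, which gives a second reading of the same RNA and not a replicate. The 48 genes have 105 probe sets, of which 83 lay below 0, 22 at an unadjusted p under 0.05, and 0 were higher at that level. Of the 57 probe sets not used above, 41 lay below 0 and 7 were lower at an unadjusted p under 0.05. Over all probe sets 47.8% lay below 0, and 3.89% were lower and 3.27% higher at that level. Among probe sets at or above the lowest member level, 58.9% lay below 0 and 8.3% were lower at that level. Among 34 genes with several probe sets above the median level, all such probe sets lay below 0 in 20, above 0 in 1, Pold3, and on both sides in 13. The 13 include Mcm4, Prim1 and Tyms, so for these the sign rests on the probe set chosen. They also include Mcm3 and Mcm5, where only the dimmest probe set lay above 0, at 0.24 (SE 0.22) and 0.13 (SE 0.51).

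**Figure D4:**
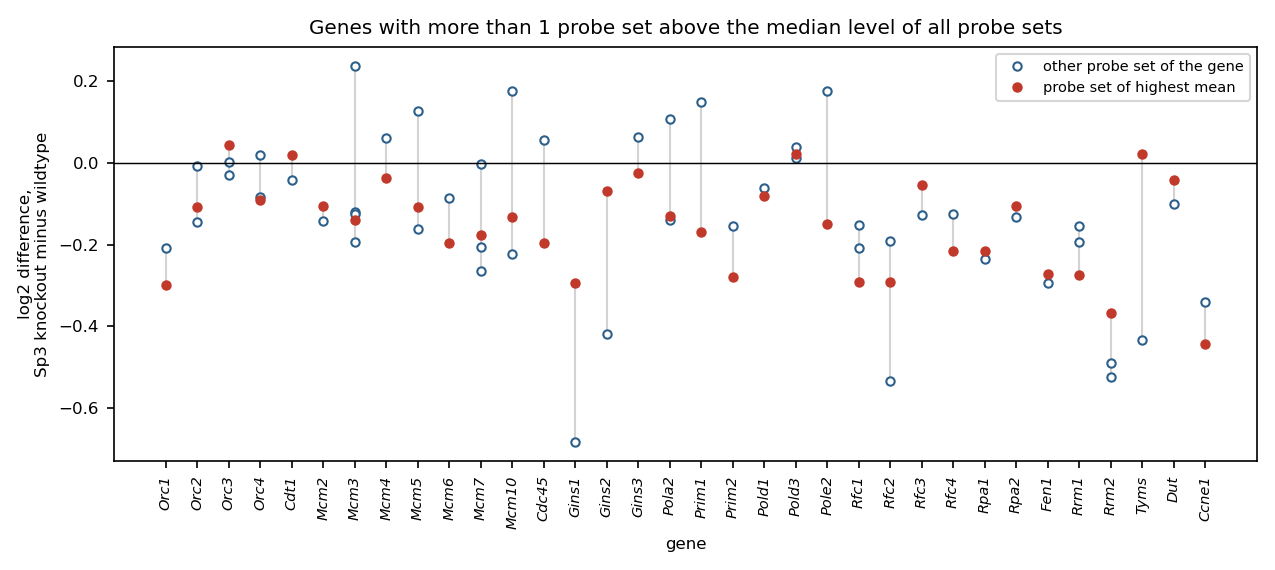
Log2 difference between Sp3 knockout and wildtype (y axis) at each probe set above the median level, for the 34 replication genes (x axis) with more than 1 such probe set. Filled points are the probe set of highest mean and open points the others, and all probe sets of Rrm2, Rrm1, Fen1, Rfc1 and Rpa1 lie below 0.

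Genes next to replication in the cell cycle leaned the same way. In 6 further lists of 128 genes, 123 were measured, and 92 had a difference below 0, with a median of -0.12. Limma called 0 of them with or without the trend, where the trend fit called 0.0311% of all probe sets. At an unadjusted limma p under 0.05, 21 were lower and 2 higher, against 3.89% and 3.27% of all probe sets. Without overlap, 22 were lower and 1 higher, against 6.89% and 6.15%. Of probe sets at or above the lowest replication gene level, 58.9% lay below 0, with a median of -0.04. In that class 8.3% were lower at an unadjusted p under 0.05 and 12.9% lower without overlap. Mitosis genes leaned most, with 19 of 23 below 0, a median of -0.22 and 9 at an unadjusted p under 0.05, led by Prc1, a bundler of spindle microtubules, at -0.45 and Mad2l1, a spindle checkpoint protein, at -0.27 (limma adjusted p = 0.618 and 0.620). Chromatin assembly genes had 10 of 12 below 0, a median of -0.13 and 3 at that level, with the histone chaperones Asf1b at -0.47 and Nasp at -0.22.

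Of the E2F, Rb and DREAM regulators, which control the transcription of replication genes, 12 of 19 lay below 0, with a median of -0.08. E2f8, a repressor that is itself made in S phase, stood at 8.40, 8.88 and 8.11 in knockout and at 9.06, 9.09 and 8.96 in wildtype. It did not overlap, at -0.57 (SE 0.17; limma adjusted p = 0.541), and Tfdp1, the partner of E2F proteins, was at -0.24. S phase kinases, cyclins and inhibitors lay below 0 in 14 of 21, with a median of -0.04. Fbxo5, the inhibitor of the anaphase-promoting complex, was at -0.29 and cyclin Ccnd2 at 0.29. The E2F and S phase lists thus lay near the background of bright probe sets, 58.9% below 0 with a median of -0.04.

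Further replication factors lay below 0 in 19 of 26, with a median of -0.09, and 3 were lower and 1 higher at an unadjusted p under 0.05. The higher one was Ung, a uracil glycosylase, with means ± SD over 3 arrays of 7.94 ± 0.06 for knockout and 7.61 ± 0.13 for wildtype, a difference of 0.33 (SE 0.14; limma adjusted p = 0.665). Rnaseh2b, of the enzyme that removes RNA from DNA, was at -0.31. Nucleotide supply genes outside the main list lay below 0 in 18 of 22, with a median of -0.07, and 3 were lower and 1 higher at an unadjusted p under 0.05. Over all probe sets 3.89% were lower and 3.27% higher at that level. Of probe sets at or above the lowest replication gene level, 8.3% were lower at that level and 58.9% lay below 0, with a median of -0.04. Rrm2b, the ribonucleotide reductase subunit induced by p53, was at -0.67 without overlap (SE 0.22; adjusted p = 0.596), and Dctpp1, a nucleotide pyrophosphatase, at -0.32. The higher one was Shmt2, a mitochondrial enzyme of one-carbon metabolism named after its value was seen, at 9.71, 9.79 and 10.31 in knockout and at 9.16, 9.20 and 9.74 in wildtype. The groups overlapped, and the difference was 0.57 (SE 0.19; limma adjusted p = 0.621).

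Markers of blood and other cells also differed between arrays. Over 11 erythroid markers the summed intensity was 30409 in knockout c, 36108 and 40653 in the other knockout arrays and 37658 to 42680 in wildtype, so knockout c was lowest, as it was for 25 replication genes. The 10 leukocyte markers summed to 2508 in knockout c, 3445 and 3530 in the other knockout arrays and 3261 to 3553 in wildtype. A sum weighs bright markers most, and Mpo, the brightest of the 10, was higher in knockout by 0.32. Gene by gene, 7 of the 10 lay below 0 and 3 above, with a median log2 difference of -0.51. Of the 10, 6 were lower without overlap, against 6.89% of all probe sets. The 8 liver markers ranged from 36946 to 37440 in knockout and from 36878 to 43242 in wildtype. Heart muscle markers ranged from 1020 to 1065 in knockout and from 379.1 to 959.4 in wildtype. Of these 12, 4 were higher without overlap, against 6.15% of all probe sets. They were Myh6, Myl2, Myl3 and Tnni1, at percentiles 11.4, 20.2, 41.8 and 70.3 of genes, so Myh6 and Myl2 were dim. The 8 endothelial markers ranged from 877.9 to 952.1 in knockout and from 945.4 to 996.2 in wildtype. No marker was at 0, which does not show that all markers lay above background. Their part in the replication gene values was not tested, and without knockout c the median difference of the 48 genes was -0.12, with 43 below 0 and 4, in place of 15, lower at an unadjusted p under 0.05.

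**Figure D5:**
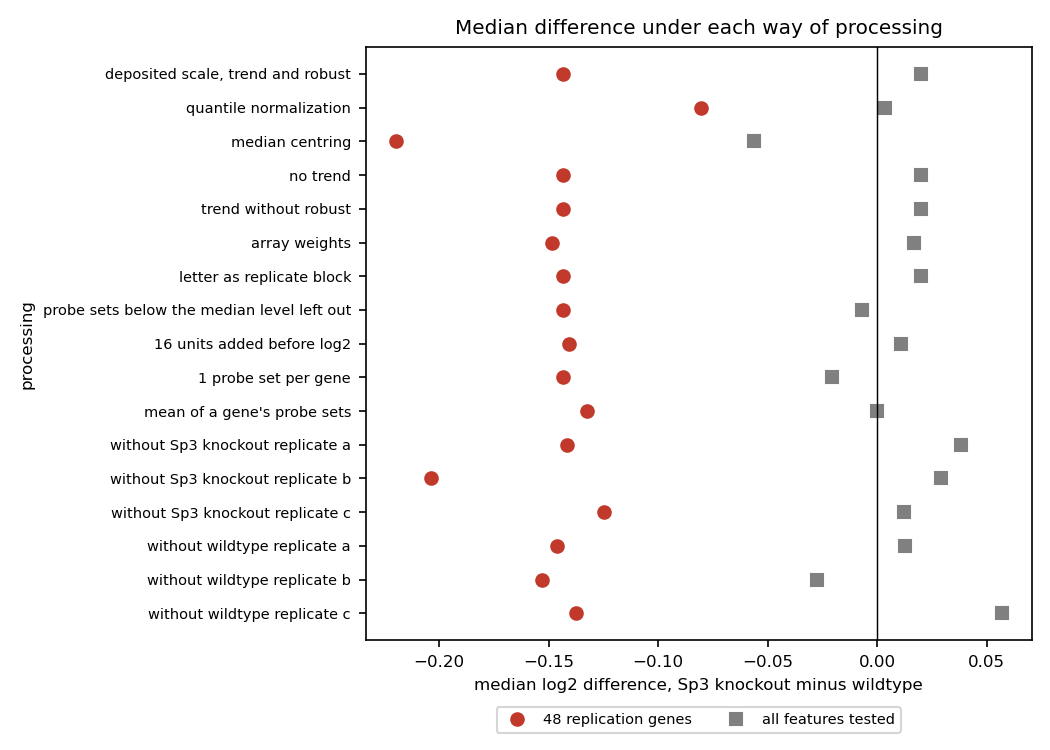
Median log2 difference between Sp3 knockout and wildtype (x axis) for the 48 replication genes (circles) and for all features tested (squares) under each way of processing (y axis). The median of the replication genes lies between -0.22 and -0.08 throughout, nearest 0 after quantile normalization.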

How the data were processed

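Total RNA of 6 samples, each labelled as heart, was hybridised to oligonucleotide arrays. The authors deposited linear intensity values between 0.0562 and 12897. Per the submitters' processing notes GCOS and RMA were used, without a stated version or order. Scaling and centring by the authors are not given in the sources used here. The design had assumed log2 values, so log2 was taken first, with no further normalization. The 64 control probe sets were left out. In the platform annotation 34945 probe sets had 1 gene, 932 had more and 9160 had none, and symbols were checked through gene identifiers against GRCm38.p6, with 0 changed. No 2 arrays shared more than 1 identical value.

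Tests used limma 3.58.1 in R 4.3.3: lmFit on group, eBayes with intensity trend and robust estimation, two-sided, Benjamini-Hochberg adjusted over 45037 probe sets, threshold 0.05. The trend was chosen because spread depends on level, with median residual SDs of 1.27 and 0.125 in the dimmest and brightest 10% of probe sets. Tests were tested on simulated data. The genes, lists and fit were chosen with earlier results of these data known. Named genes were Sp3, all replication genes, and the 2 of smallest p in each further list. Shmt2 and the marker genes named singly were chosen after their values were seen. Genes of the lists without an annotated probe set, 5 of 128, were not analysed here. Promoters were matched by symbol. The number of arrays limits precision.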

Additional observations from a re-analysis of the deposited data

How the results depend on the processing

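The alternatives were quantile normalization, median centring, limma without the trend or without robust estimation, weighting of arrays, blocking on the letter, leaving out dim probe sets, adding 16 units, 1 probe set per gene, averaging all probe sets of a gene, and each array left out. Of the 48 replication genes, 30 kept their sign in all 16, all 30 below 0, and 18 changed it in at least 1. The median of the 48 lay between -0.22 and -0.08. After median centring 47 lay below 0, with a median of all probe sets of -0.06, a shift of the scale itself. The count of genes called was 0 in each setting other than the block. The count lower at an unadjusted p under 0.05 was 15 on the deposited scale (3.89% of all features tested). It was 20 after median centring (5.74%), 16 with the block (5.86%) and 14 without dim probe sets (5.78%). It was 13 without robust estimation (3.97%), 11 for averaged probe sets (4.75%), 4 after quantile normalization (3.62%) and 1 without the trend (2.73%). With 1 array left out it ran from 4 to 18, and the share from 2.55% to 5.14%. The count was 15 under the other 3 settings, array weights (4.78%), 16 units added (3.94%) and 1 probe set per gene (5.70%). These counts were added after the data were seen. Over all probe sets the trend fit called 14, limma without the trend 0, array weights 25, averaged probe sets 9, and the fits without 1 array from 3 to 24. The Sp3 difference of -1.27 was past the threshold except without the trend (adjusted p = 0.279) and without knockout a. Without 1 array it ranged from -1.37 to -1.20.

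With the letter as a replicate block, 1 replication gene, Tk1, was called (limma adjusted p = 0.0235), with 4 genes of the further lists and 258 probe sets in all. Deviations of same-lettered arrays correlated at -0.01, 0.05 and 0.08, all under the limit of 0.1 set for pairing. Knockout b and c each correlated best with the wildtype array of their own letter, and knockout a with wildtype b. With so few pairs these correlations cannot decide whether the letters pair the samples, and what the letters stand for is unknown. The median half-width of the 95% intervals of the 48 genes was 0.24 on the log2 scale, wider than their median difference of -0.14.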
